A study of Mus musculus with 5 samples.

Results

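CD8 T cells taken 48 h after stimulation by antigen and B7-1, in the absence of IL-21, were described here by the order of their transcript signals on 2 Affymetrix MG-U74Av2 arrays, out of 5 arrays in the series. The cells came from 6 to 8 week old C57BL/6 mice carrying the OT-I transgenic antigen receptor, which recognises an ovalbumin peptide on the class I molecule H-2Kb. CD44-low CD8+ cells were enriched from lymph nodes by negative selection and cultured with latex beads bearing peptide-loaded H-2Kb and the costimulatory ligand B7-1. Human IL-2 was present in every culture, and no IL-21 was added to the cells described here. The titles call the samples biological replicates, and the labels do not say whether they came from separate mice or cultures. The labels give no purity and no count of cells or of divisions. Control probe sets were set aside, the remaining 12422 probe sets were ranked by signal within each array, and both ranks were averaged. Each of 8251 genes then took the place of its highest probe set, with position 1 the highest signal. The 2 replicates were not compared with any other group, and no test was made.

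Naive CD8 T cells are small and metabolically quiet. Antigen recognition together with CD28 engagement by B7-1 makes them enlarge, build ribosomes, raise glycolysis and copy their DNA, and IL-2 sustains their division. The same signals start the programme of the cytotoxic T cell, which kills targets with granzymes and perforin. In a growing cell, transcripts for ribosomal proteins, translation factors, the cytoskeleton and glycolysis are usually among the most abundant, and lineage genes make up a smaller share.

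The 3 markers of activated CD8 T cells were spread over the ranking. Irf4, a transcription factor induced in proportion to antigen receptor signal, had signals of 1624 and 1483 in replicates 1 and 2 and stood at position 60. Gzmb, which encodes granzyme B, had signals of 1212 and 2572 and stood at position 63, or at 111 and 29 on each array alone. Il2ra, the alpha chain of the high-affinity IL-2 receptor, had signals of 142 and 216 and stood at position 1388, outside the highest 825 genes, which are the highest 10%. By their highest singly named probe sets, the CD8 and CD3 genes had clear signal, the weakest being Cd247 with 83.8 and 66.1. Cd4, with 1 set, had 12.7 and 8.61 at position 5523. A second set of Cd3d gave 2.18 and 0.356 and a second set of Cd247 gave 1.59 and 2.10, below Cd4. By the highest set alone, the genes of the CD8 coreceptor and the CD3 complex thus stood above Cd4. Il2ra was the marker that did not stand near the top.

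Signals fell steeply along the ranking. Rpl41 headed it with 7556 and 7433. At positions taken as landmarks, Cyc1 at position 100 had 1237 and 1166, Uhmk1 at position 825 had 273 and 266, and P2rx1 at position 4125 had 38.8 and 22.98. The 10 highest genes carried 5.07% and 5.42% of the summed signal of the 8251 ranked genes, the 100 highest carried 23.4% and 24.3%, and the highest 10% carried 60.3% and 61.0%. Probe sets with several names or none were left out of this sum. The 4126 genes at the lower end carried 4.08% and 3.93%. The share is of signal and not of RNA molecules, because a signal also depends on how well the probes of a set bind their transcript.

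**Figure D1:**
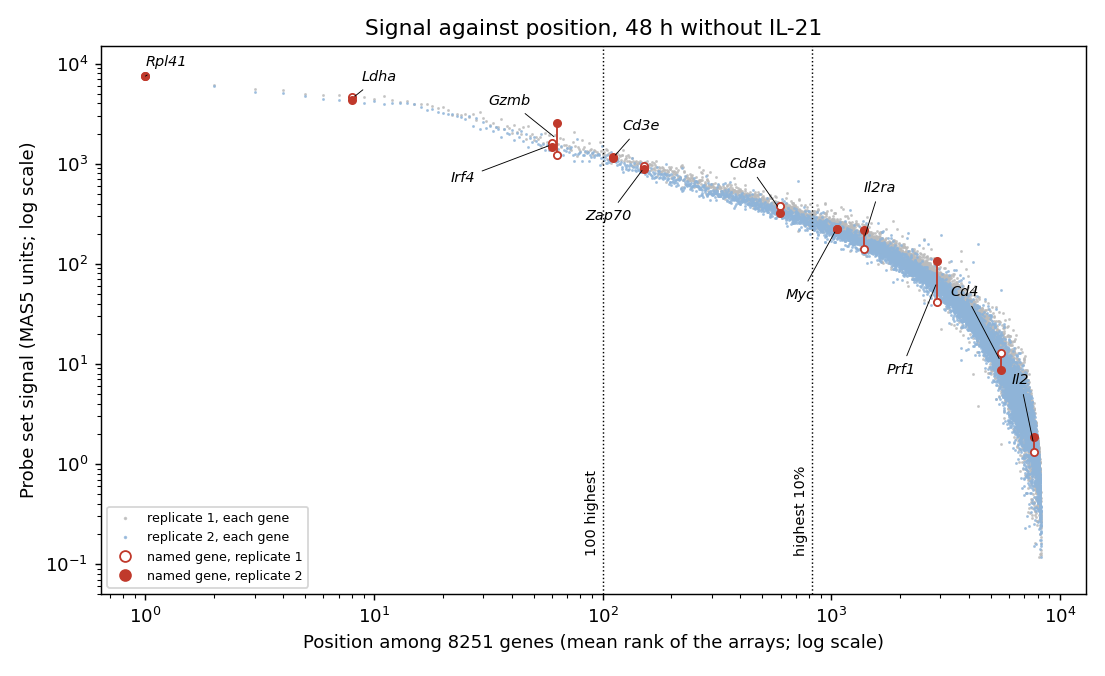
Probe set signal (log scale) against position among 8251 genes (log scale) for each gene on each of the 2 arrays; red circles mark named genes, open for replicate 1 and filled for replicate 2, joined by a line. Rpl41 at position 1 has 7556 and 7433, Gzmb (1212 and 2572) is the labelled gene of the upper part whose 2 circles lie farthest apart, and the replicates spread more widely as signal falls.

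Genes with several probe sets showed how far the signals of 1 gene can differ between its sets. In the highest 10%, 271 genes had more than 1 singly named probe set, and the median ratio of the highest to the lowest set of a gene was 18.3. The ratio was above 10 in 158 of them (58.3%). These genes were chosen by their highest set, which widens the ratio, so it does not describe all genes. The sets of a gene may also match different transcripts. The beta-actin gene Actb, which stood outside the highest 10% and was looked up after its values were seen, is an example of such a difference between sets. Its 3 control probe sets on the array, which were kept out of the ranking, had signals from 4725 to 5362 over both arrays, whereas its highest singly named probe set had 141 and 138 and put it at position 1699. The Ptprc gene, which encodes the leukocyte phosphatase CD45, had 3 sets, of which the highest gave 402 and 273 and the lowest 1.34 and 0.118. A high position thus shows signal from at least 1 probe set, and a low one can be either little transcript or a set that responds poorly, which was not tested. In a bulk sample, fewer cells of a type and less RNA per cell cannot be told apart.

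Genes of organs other than lymphoid tissue gave a floor for reading signals. The 68 measured genes of this kind, such as Fgg (fibrinogen) and Lhb (luteinising hormone), had a median position of 6408, and none was in the highest 10%, which by definition holds 10% of all genes. Mbp, a myelin protein gene, was the highest of them at position 2522 with 109 and 64.4. The 90th percentile of the 68 was 25.5 on replicate 1 and 24.0 on replicate 2, and 4188 of 8251 genes (50.8%) exceeded it on both arrays.

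Ribosomal protein genes filled the very top. They made up 11 of the 20 highest genes, 17 of the 50 highest and 18 of the 100 highest, where the 100 highest are 1.21% of all genes ranked. After Rpl41 came Rplp0, the stalk protein of the large subunit, at position 3 with 5616 and 5257. Rps28 of the small subunit stood at position 4 with 5422 and 5097, and Rps18 at position 5 with 4992 and 4750. Rpl8 at position 7 had 4818 and 4371. The 2 values of each of these genes lay close together, with replicate 2 lower, as for most genes of the ranking. Rps24, Rpl19, Rps3a1, Rps3, Rpl6 and Rps4x followed between positions 10 and 20, and Rps10, Rpl7, Rps7, Rpl10a and Rpl7a between 23 and 35. Rps19 was the ribosomal gene of the 100 highest with the widest gap, with 3305 and 2223 at position 29.

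The measured ribosomal genes did not form 1 even block. Of the 32 with a singly named probe set, 20 stood in the highest 10%, 2 stood between the highest 10% and position 4126 (Rps27 at 1731 and Rpl22 at 3578, named after their values were seen), and 10 stood in the lower 4126 genes. The 10 low genes ran from Rps29, named in the same way, at 4756 to Rpl32, which stood at 7531 with 2.47 and 1.43. Their products sit in the same particle as those of the top genes, and none of the 10 had a further probe set shared with another gene name. Whether these sets respond poorly was not tested. The other ribosomal genes of the 80 listed could not be placed singly, because 30 appeared only on probe sets with several gene names and 18 on none used here.

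Leaving out shared probe sets also lowered the count at the top. Of the 100 highest probe sets, 54 carried 1 gene name, 32 carried several and 14 carried none, and 22 of the 32 carried a ribosomal protein name. Ribosomal protein genes have many near-identical processed pseudogenes, and probe sets that match a gene and its pseudogenes get several names. When 118 probe sets with several names were given to the 1 gene of theirs that is in a list, 60 ribosomal genes could be placed, and 39 of them stood among the 100 highest and 14 among the 20 highest. This setting was chosen after seeing the data. Without shared sets, no other list had as many members among the 100 highest, and the ribosomal genes carried 7.02% and 7.32% of the summed signal.

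**Figure D2:**
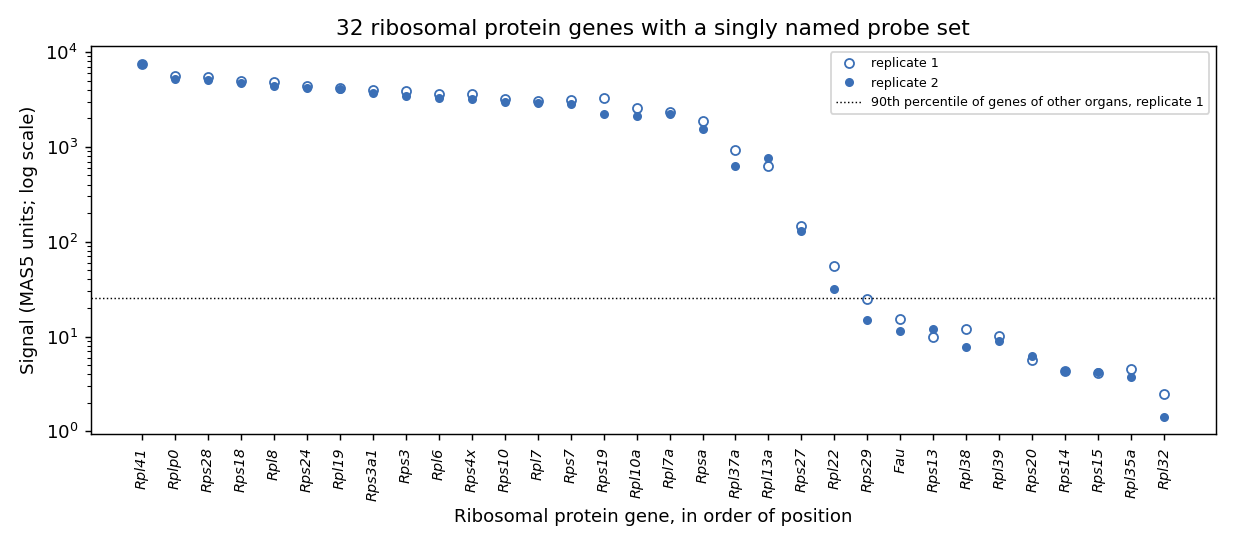
Signal (log scale) of 32 ribosomal protein genes in order of position; open circles are replicate 1 and filled circles replicate 2. The first 18 genes, down to Rpsa, lie above 1500 on both arrays, and the 10 lowest lie below the dotted line, which marks the 90th percentile of genes of other organs on replicate 1 (25.5).

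The start of a ribosomal protein transcript is the place where its translation is known to be regulated: such messages usually begin with an unbroken run of C and U, the terminal oligopyrimidine tract, through which growth signals control their loading onto ribosomes. The promoter table from RefSeq (assembly GRCm38.p6) was searched for a run of 8 or more C or T that overlaps the 5 bases on either side of the annotated start, on the transcribed strand, in genes with 1 annotated start. The motifs described here were chosen after the data were seen. The following windows run from 15 bases before the start to 15 bases after it, 5′ to 3′, and were chosen to show top genes with a run in capitals and a top gene without one.
Rpl7a, chr2:26910792-26910821, plus strand: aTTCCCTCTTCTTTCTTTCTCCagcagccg
Rps10, chr17:27635230-27635259, minus strand: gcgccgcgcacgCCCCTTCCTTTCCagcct
Rps18, chr17:33955651-33955680, minus strand: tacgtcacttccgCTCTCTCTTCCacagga
Eef1a1, chr9:78481710-78481739, minus strand: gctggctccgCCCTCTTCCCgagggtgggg
Rplp0, chr5:115559452-115559481, plus strand: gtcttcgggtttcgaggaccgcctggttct
Cd3d, chr9:44981771-44981800, plus strand: ctcccccaCTCTTCCTTTTTCTgaataccc
The run measured 21 bases in Rpl7a, 13 in Rps10, 11 in Rps18 and 10 in Eef1a1, and the Rplp0 window held no run of 8. It was found in 19 of 51 listed ribosomal genes (37.3%), in 7 of the 20 ranked here (35.0%), and in 2094 of all 22862 promoters (9.16%). When the ranked genes were taken in 10 steps from highest to lowest, it ranged from 7.63% to 12.1% without a trend. Cd3d, a T cell receptor subunit gene at position 552, has a run of 14, so the letters also occur outside the ribosomal genes. A window without a run says only that no run of 8 or more lies at the annotated start, and shorter runs were not counted.

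Translation factors were more spread out than ribosomal proteins, with a median position of 785 against 34. Eef1a1, which brings aminoacyl-tRNA to the ribosome, stood at position 2 of the singly named genes, with 6148 and 5902. Eef2, which moves the ribosome along the message, stood at position 26 with 2928 and 2998, and Pabpc1, the poly(A)-binding protein, at position 28 with 2754 and 2851. Of 38 measured translation factors, 6 stood among the 100 highest and 19 in the highest 10%. Eef1g, which belongs to the same elongation complex as Eef1a1, was the lowest at position 7687 with 1.53 and 1.63. Family members thus stood at both ends of the ranking. Tpt1, which encodes a growth-related protein and is not in the list, stood at position 6 with 4824 and 4402.

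Nucleolar genes, which serve ribosome assembly, were present across the upper part of the ranking. Of 43 measured, 42 stood above position 4126 and 16 in the highest 10%. Ncl (nucleolin) stood at position 27 with 3130.2 and 2365, and Npm1 (nucleophosmin) at position 30 with 2846 and 2608. Nop10, a component of the small nucleolar RNPs that modify ribosomal RNA, stood at position 59 with 1596 and 1550.1. Wdr12 was the only member below position 4126, at 5599.

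Glycolysis had the largest share of a metabolic list at the top. Of 20 measured genes, 8 stood among the 100 highest and 12 in the highest 10%. Ldha, which turns pyruvate into lactate, stood at position 8 with 4631 and 4315. Pkm (pyruvate kinase) at position 15 had 3984 and 3964, Aldoa (aldolase) at position 22 had 3095 and 3167, and Tpi1 (triosephosphate isomerase) at position 31 had 2674 and 2274. The other members among the 100 highest, named after their values were seen, were Pgk1, Bsg, Pgam1 and Hk1. Gapdh was not ranked, since its other probe sets also carry pseudogene names, and its 3 control sets gave signals from 4836 to 6706. Ldhb, the other lactate dehydrogenase subunit, was the lowest member at position 4525 with 27.3 and 19.3.

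Genes of the respiratory chain and ATP synthase were broadly high. Of 72 measured, 4 stood among the 100 highest and 43 in the highest 10%, with a median position of 583. Cox17, which delivers copper to cytochrome c oxidase, stood at position 58 with 1941 and 1380 (replicates 1 and 2). Uqcrq of complex III stood at position 66 with 1470 and 1498, Cox6a1 at 88 with 1371 and 1218, and Cyc1 (cytochrome c1) at position 100. Cox8a was the lowest at position 7730 with 1.62 and 1.45. The list thus stands high as a group, and 11 of its 72 members lay below position 4126.

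The cytoskeleton was the list with the most members among the 100 highest after ribosomal proteins. Of 52 measured, 10 stood there and 27 in the highest 10%. Tuba1c, an alpha tubulin, stood at position 12 with 4346 and 4038. The actin-sequestering peptide gene Tmsb10 at position 14 had 4237 and 3999, and its relative Tmsb4x at position 37 had 2240.1 and 2234. Actg1 (gamma-actin) at position 21 had 3448 and 3142, and Cfl1, which severs actin filaments, at position 32 had 2459 and 2387. Flna (filamin A) was the lowest at position 7589 with 1.80 and 1.72.

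Protein turnover and folding genes followed. The proteasome had 28 of 39 measured genes in the highest 10%, a median position of 448 and 2 genes among the 100 highest. Those were Psma2 at position 82 with 1401 and 1234, and Psma3 at position 85 with 1351 and 1292. Of 33 chaperone genes, 18 stood in the highest 10%, led by the mitochondrial Hspd1 at position 65 with 1817 and 1249 and the chaperonin subunit gene Cct5 at position 78 with 1464 and 1239. The endoplasmic reticulum folding genes had none among the 100 highest. Hsp90b1 led them at position 141 with 982 and 938, and Hspa5 (BiP) stood at position 297 with 580.0 and 532. Calr (calreticulin), a chaperone of the same compartment, had 3.71 and 0.798 at position 7529.

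Genes of RNA processing, DNA replication and mitosis were spread over the upper part of the ranking. Of 51 genes of the splicing and RNA binding list, 30 stood in the highest 10% and 6 among the 100 highest. The 6 include Naca at position 97, named after its values were seen, which encodes a nascent chain-binding protein and not a splicing factor. Ybx1, which binds messages and pre-messages, led at position 11 with 4791 and 3907. Srsf2, a splicing factor, stood at position 50 with 1738 and 1858. Of 64 genes for DNA replication and nucleotide supply, 26 stood in the highest 10%, with Mcm5 of the replicative helicase at position 160 with 921 and 852 and Pcna, the sliding clamp, at position 167 with 1017 and 714. Of 42 mitotic genes, 16 stood in the highest 10%. Ran, a small GTPase for nuclear transport and spindle assembly, led these at position 18 with 3783 and 3487, and Cdc20, an activator of the anaphase-promoting complex, stood at position 178 with 908 and 738. Mki67, the antigen of cycling cells, was looked up after its values were seen, and it stood at position 807 with 308 and 243.

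Growth and stress lists that were smaller or more mixed completed the picture. Of 29 polyamine, amino acid transport and MYC target genes, 14 stood in the highest 10%, led by the serine synthesis gene Psat1 at position 103 with 1399 and 1006. Slc7a5, the large neutral amino acid transporter gene, stood at position 135 with 1143 and 857. Of 22 histone and HMG genes, 10 stood in the highest 10%, led by the nucleosome-binding Hmgn1 at position 49 with 1966 and 1629. Of 25 antioxidant genes, 6 did, led by Txn1 (thioredoxin) at position 39 with 2285 and 1968. Of 17 genes of ubiquitin and related modifiers, 7 did, led by Elob at position 106 with 1237 and 1079. The S100, annexin and galectin list was split, with 4 of 24 in the highest 10% and a median position of 4387. Its highest member was Lgals1 (galectin-1) at position 54 with 1485 and 1989, and its lowest was Anxa1 at position 7815 with 0.161 and 2.67. Of 33 interferon-stimulated genes, 6 stood in the highest 10%, led by Ly6e at position 86 with 1307 and 1299, and of 12 class I and peptide loading genes, 6 did.

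The lists that describe cell function held 70 of the 100 highest genes and 315 of the 825 in the highest 10%, with 669 measured genes and a median position of 958. The T cell lists held 5 and 50, with 272 measured genes and a median position of 2842. On replicate 1 alone 3 T cell genes stood among the 100 highest, and on replicate 2 alone 7 did. The median over all genes was 4126. The remaining 25 of the 100 highest were in no list. Among these, Trbv1 and, named after its values were seen, Trbv13-2, both named for T cell receptor beta variable segments, stood at positions 9 and 62, with signals of 4583 and 4052 for Trbv1. A second singly named set of Trbv1 had 3.08 and 1.51, and with plain probe sets alone the gene moved down by 88.2 percentile points. OT-I cells carry a transgenic receptor, and these signals cannot be read as use of the named segments. Whether the probes of Trbv1 and Trbv13-2 lie in the variable or in the shared constant part was not tested. Among other genes of this remainder, looked up after their values were seen, were the G protein genes Gnas at position 38 and Gnai2 at position 46 and the mitochondrial enzyme Mdh2 at position 93.

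**Figure D3:**
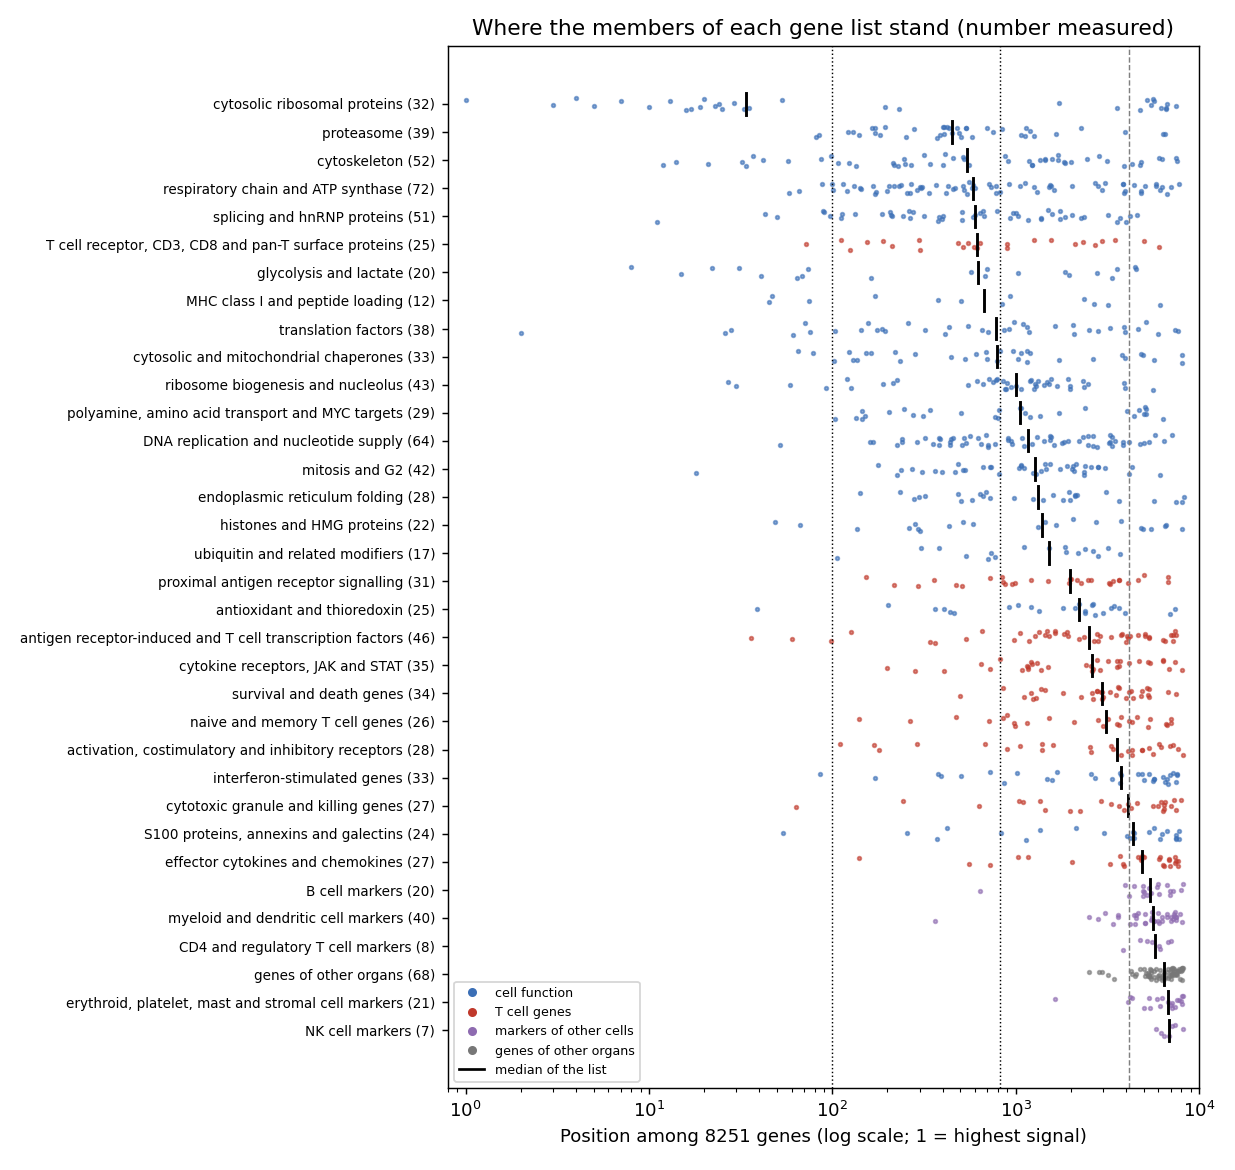
Position (log scale, 1 is highest) of each measured member of 34 gene lists, 1 row each with the number measured in parentheses; the black bar is the list's median, dotted lines mark positions 100 and 825 and the dashed line the middle of the ranking. Ribosomal proteins lie leftmost with a second cloud at the right, T cell receptor and CD8 genes have a median of 613, and markers of other cells and organs lie at the right.

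The list of T cell receptor, CD3, CD8 and surface proteins holds genes that mark T cells and also genes of all leukocytes. A shorter list for CD8 T cell identity had 9 genes, of which 8 were measured (Cd3d, Cd3e, Cd3g, Cd247, Cd8a, Cd8b1, Thy1 and Cd2). Lck, the other listed gene, had no singly named probe set. Of the 8, 7 stood in the highest 10%, with a median position of 500.0. Only Cd8a and Cd8b1 of these encode the CD8 coreceptor, so the count does not separate CD8 cells from other T cells. Of 25 measured genes of the whole list, 14 stood in the highest 10%, 23 exceeded the organ floor on both arrays, and the median position was 613. The highest, Cd53, encodes a tetraspanin found on leukocytes and stood at position 72 with 1389 and 1436. Cd3e stood at position 111 with 1137 and 1158, Cd3g at position 518 with 433 and 346, and Cd3d at position 552 with 379 and 356. These encode subunits of the CD3 complex, which joins the receptor chains at the surface in fixed proportion, and their different signals cannot be read as different amounts. Cd247, the zeta chain with the longest signalling tail, stood at 2693 with 83.8 and 66.1.

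The 2 chains of the CD8 coreceptor, which binds class I molecules, both stood in the highest 10%. Cd8b1 had 825 and 437 at position 296, and Cd8a had 378 and 325 at position 595. Thus the coreceptor chain genes differed in signal, and Cd8b1 also differed between replicates. Thy1, a surface protein of mouse T cells, stood at position 125 with 1121 and 964. The other members ran from Cd52, a small surface glycoprotein gene at position 155 with 974 and 842, and Cd6, a scavenger receptor family gene at position 190 with 664 and 991, to the lowest 2, Cd7 at 5026 with 22.2 and 10.9 and the integrin alpha 4 gene Itga4 at 6056 with 5.06 and 9.05. Cd28, the receptor for B7-1, had 214 and 321 at position 900. Ptprcap, which associates with CD45, had 833 and 637 at position 212, and Cd5, an inhibitor of receptor signalling, had 515 and 624 at position 299. Cd2, an adhesion receptor, had 383 and 448 at position 482, and Cd48, its ligand, had 399 and 292 at position 613. Cd27, a costimulatory receptor of naive and early activated T cells, had 239 and 275 at position 893. Ptprcap, Cd5, Cd2, Cd48 and Cd27 thus lay among the 893 highest genes, with Cd28 just below them. Integrin genes stood lower: Itgb7 had 156 and 242 at position 1263, Itgal 187 and 125 at position 1564 and Itgb2 112 and 105 at position 2095. Cd37 had 99.1 and 86.8 at position 2328, Spn (CD43) 57.02 and 71.99 at position 2952, and Cd96 61.0 and 33.1 at position 3468.

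Proximal signalling genes, which pass the receptor signal to the cell, stood lower as a list. Of 31 measured, 7 stood in the highest 10% and 27 above position 4126. Zap70, the kinase that binds the phosphorylated CD3 chains, led them at position 152 with 951 and 880. Lcp2 (SLP-76), an adaptor, stood at position 218 with 704 and 731, and Ptpn22, a phosphatase that restrains the kinases, at position 359 with 412 and 653. Nck1 was the lowest at position 6781 with 5.66 and 2.46. Lat, the adaptor that Zap70 phosphorylates, was looked up after its values were seen, and it stood at position 3227 with 51.4 and 54.6.

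Activation, costimulatory and inhibitory receptors had 5 of 28 in the highest 10%. Tfrc, the transferrin receptor of growing cells, led them at position 110 with 1135 and 1181. A second singly named set of Tfrc gave 357 and 361, and the 3 control sets for this transcript, set along its length from the 5′ to the 3′ end, gave 94.8 to 379 on replicate 1 and 164 to 464 on replicate 2. Tnfrsf4 (OX40) stood at position 168 with 906 and 797, and Tnfrsf18 (GITR) at position 179 with 853 and 781. These 2 receptors take costimulatory signals of the TNF family in activated T cells. Lag3, an inhibitory receptor, had 532 and 645 at position 289, and Ctla4, the competitor of CD28 for B7-1, had 404 and 254 at position 680. Cd40lg was the lowest at position 8164 with 1.04 and 0.298, and it is made chiefly by CD4 cells.

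Cytokine receptors and their kinases were led by Pim2, a kinase gene induced through STAT5, at position 200 with 931 and 610. Jak3, the kinase of the common gamma chain, stood at position 283 with 502 and 753, and Socs1, a feedback inhibitor of cytokine signalling, at position 729 with 304 and 291. Stat3 had 313 and 360 at position 644, and Stat5a 317 and 232 at position 823, just inside the highest 10%. Of 35 measured genes, 6 stood in the highest 10% with a median position of 2619. The IL-2 receptor beta gene Il2rb, looked up after its values were seen, had 195 and 219 at position 1168. Both measured chains of the IL-2 receptor thus lay outside the highest 10%, in the presence of added IL-2, and both lay well above the organ floor. Tgfbr2 was the lowest at position 8045 with 1.45 and 0.505.

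Transcription factors of T cell activation had 3 of 46 among the 100 highest and 8 in the highest 10%. Jund, an AP-1 subunit gene, stood at position 36 with 2779 and 1859. Irf4 followed at position 60, and Hif1a, a regulator of the glycolytic programme, at position 99 with 1026 and 1513, or at 143 and 59 on each array alone. Atf4, which responds to amino acid supply, stood at position 126 with 1202 and 892. Myc, which raises growth genes in activated T cells, had 224 and 222 at position 1055 and was looked up after its values were seen. The listed minimum was Runx1 at position 7454 with 1.18 and 3.13. No order of factor activity can be read from these positions, since activity also depends on protein.

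Of 26 naive and memory genes, 4 stood in the highest 10%. Ltb (lymphotoxin beta), at position 139 with 1049 and 867, stood highest, followed by Slfn2 at position 265 with 919 and 473 and Lef1, a transcription factor of naive T cells, at position 473 with 422 and 408. Satb1, a chromatin organiser, was the fourth at position 719. Ccr7, which guides naive cells to lymph nodes, had 269 and 206 at position 985. Klf2, a factor that keeps naive cells quiet, was the lowest at position 7013 with 2.88 and 3.21.

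Cytotoxic genes were carried by Gzmb. It was the only 1 of 27 measured among the 100 highest, and 3 stood in the highest 10%. Its place among the 100 highest rested on replicate 2, where it stood at position 29 against 111 on replicate 1 alone. Lamp1, a lysosomal membrane protein gene, followed at position 243 with 668 and 645, and Cst7, a granule protease inhibitor, at position 632 with 297 and 404. Prf1 (perforin), looked up after its values were seen, had 41.2 and 107 at position 2908, and Srgn (serglycin), the granule proteoglycan, had 83.0 and 122 at position 2230.

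The other 7 measured granzyme genes stood between positions 5974 and 7958, with signals from 0.887 to 9.504 over both arrays, all below the organ floor. Gzmk, with 0.887 and 1.31, was the lowest of the cytotoxic list. Effector cytokines and chemokines were also mostly low, with a median position of 4896 and 3 of 27 measured genes in the highest 10% (Ltb, Tgfb1 and Ccl3). Ccl3, a chemokine that draws other leukocytes, had 435 and 222 at position 722, and its relative Ccl4 had 322 and 167 at position 1034. Tnf had 33.4 and 43.6 at position 3721. Il2 was the lowest at position 7692 with 1.30 and 1.87. Ifng, looked up after its values were seen, had 17.7 and 1.40 at position 6351, below the organ floor on both arrays. The cells were taken 48 h after the start of stimulation, and no restimulation is named in the labels.

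Survival and death genes had a median position of 2971, and 1 of 34 stood in the highest 10%: Aifm1, a mitochondrial protein, at position 500 with 401 and 393. Bcl2, which protects from mitochondrial death, had 257 and 278 at position 848, and Bcl2l1, its relative, had 264 and 146 at position 1237. Fas, the death receptor, stood at position 7176 with 2.70 and 2.55, and Diablo was the lowest of the list at 7532.

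Markers of other cells were mostly below the organ floor. Of 20 B cell markers, 2 exceeded the floor on both arrays: Ighm, the immunoglobulin mu heavy chain gene, at position 640 with 514 and 240.0, and Btk at position 3941 with 36.3 and 31.3. Ighm had 16 singly named probe sets, of which only 3 reached a signal of 15 on both arrays, so its position rested on a few sets. Of 40 myeloid and dendritic markers, 7 exceeded the floor on both arrays, led by Batf3 at position 363 with 471 and 525. Batf3 is also made by activated T cells, and the next member, Cd74, the class II invariant chain, had 143 and 49.1 at position 2508. The growth factor receptor gene Flt3 had 84.4 and 56.2, and the class II gene H2-Ab1 had 64.9 and 51.8. Lyz2, which encodes a myeloid lysozyme, had 0.424 and 1.13. None of 7 NK cell markers exceeded the floor on both arrays. Of 8 CD4 and regulatory T cell markers, only Ccr4 exceeded it, with 37.3 and 35.0. The summed signal of the B cell list was 765 and 454, and that of the erythroid, platelet, mast and stromal list was 368 and 278. The highest member of the latter was the collagen gene Col1a2 at position 1638 with 182 and 118. Whether a small number of other cells took part in any value was not tested.

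The order of genes was compared between the arrays. Spearman's rho was 0.955 over all 12422 probe sets and 0.913 within the narrower range of the highest 10%, given as a description of 2 libraries. The 100 highest genes of the 2 arrays shared 89 genes, and the highest 10% shared 750 of 825. Replicate 2 had the lower signal on the whole, with a median ratio to replicate 1 of 0.852 over all probe sets and 0.885 over the highest 10%, where 665 of 825 genes were lower. A uniform shift of this kind leaves ranks as they are. From the median ratio of 0.885, 2 of 825 genes in the highest 10% (0.242%) departed by more than 2-fold. From the ratio of 0.852 over all probe sets, 1253 of 4126 genes (30.4%) in the lower part did, so positions near the bottom have little precision.

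The 2 genes that departed by more than 2-fold were Satb1, with 210.4 and 677, and Gzmb. Of 27 cytotoxic genes, 15 had the higher value on replicate 2, Prf1 among them with 41.2 and 107. Only 12 of the 27 exceeded the organ floor on both arrays. The list's median log2 ratio of replicate 2 to replicate 1 was 0.06, beside -0.23 over all probe sets. The summed signal of the list was 3483 and 5018. Gzmb made up most of that difference, since the other 26 genes summed to 2270.3 and 2446. Class I antigen presentation genes went the other way. B2m, the light chain of class I, had 2089 and 1061 at position 75, H2-D1 had 2395 and 1469 at position 47, and H2-K1 had 2349 and 1682 at position 45. The median log2 ratio of replicate 2 to replicate 1 was -0.67 over 12 class I and peptide loading genes, with 11 lower, and -0.86 over 33 interferon-stimulated genes, with 29 lower, beside -0.23 over all probe sets and -0.18 over the highest 10%. By count alone these lists did not stand apart. On replicate 2, 665 of 825 genes of the highest 10% were lower. So were 40 of 42 mitotic genes (median -0.28) and 56 of 64 DNA replication genes (median -0.25). The class I and interferon-stimulated lists share 3 genes (Psmb8, Psmb9 and Tap1). Without them the medians were -0.48 over 9 class I genes and -0.88 over 30 interferon-stimulated genes. Only 15 of the 33 interferon-stimulated genes exceeded the organ floor on both arrays, and lists near the floor were also lower on replicate 2, with a median of -0.49 for the genes of other organs and -0.63 for the erythroid, platelet, mast and stromal markers. Isg15, an interferon-induced ubiquitin-like protein gene, had 107 and 14.3. Psmb8, an interferon-inducible proteasome subunit gene, had 1056 and 660.3 at position 171. These differences between replicates of 1 group have no test, and their cause was not tested. Among the 10 genes of the highest 10% whose ranks differed most were also Ptpn1, a phosphatase gene with 293 and 447, Ier3, an immediate early gene with 245 and 370, and Akt2, a kinase gene with 245 and 338. Ccnd2, which encodes cyclin D2, had 393 and 198, Chchd10 had 448 and 219, Taf1d had 383 and 219, and Crip1 had 243 and 333. Ighm and Ccl3 complete the set.

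**Figure D4:**
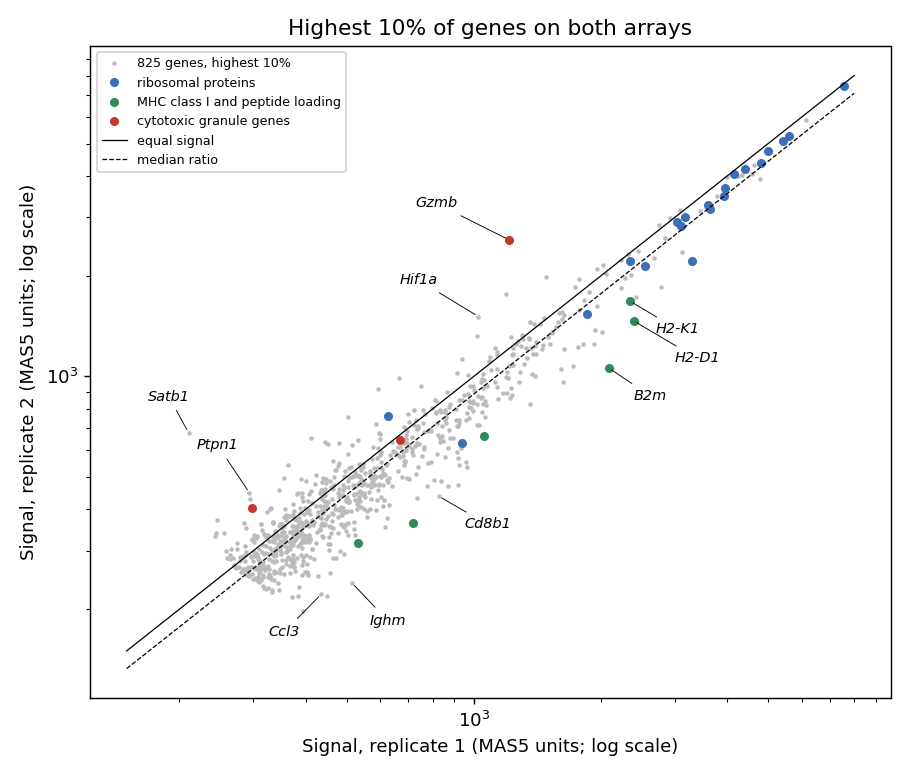
Signal on replicate 2 against replicate 1 (both log scales) for the 825 genes of the highest 10%; the solid line is equal signal and the dashed line the median ratio of 0.885. Gzmb (1212 and 2572) and Satb1 (210.4 and 677) lie farthest above the line, and the class I genes B2m, H2-D1 and H2-K1 lie below it.

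Promoter sequence, which the ranking did not use, was then read for short motifs. In 250 bases before to 50 after the annotated start, the letters CGGAA on either strand (CGGAA or TTCCG) were counted, the core to which several ETS family factors bind. Of 553 promoters of genes in the highest 10%, 334 held it (60.4%), against 797 of 2549 (31.3%) in the lower 4126 genes, 2377 of 5268 (45.1%) over all ranked genes and 30.0% over all 22862 promoters. Over 10 steps along the ranking the share was 57.8% to 63.0% in the 4 highest steps and 23.3% to 28.8% in the 3 lowest, and the median count of CG pairs went from 23 in the highest step to 9 in the lowest. Within promoters above the median of 19 CG pairs it was 67.4% in the highest 10% and 43.8% in the lower 4126 genes, and within those at or below the median it was 47.7% and 24.5%. Ribosomal genes had the highest share of the groups counted here, with 44 of 51 listed (86.3%) and 17 of 20 ranked (85.0%). The following windows of 40 bases, each lying before the start, show in capitals the nearest match that lies wholly upstream in 4 genes of the 100 highest and in Ltb, a T cell gene.
Rpl41, chr10:128549202-128549241, minus strand: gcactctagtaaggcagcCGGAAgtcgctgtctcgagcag
Rps28, chr17:33824603-33824642, minus strand: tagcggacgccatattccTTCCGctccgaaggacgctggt
Rps3a1, chr3:86142669-86142708, minus strand: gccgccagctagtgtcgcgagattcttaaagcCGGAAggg
Cfl1, chr19:5490361-5490400, plus strand: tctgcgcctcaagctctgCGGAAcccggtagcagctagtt
Ltb, chr17:35194401-35194440, plus strand: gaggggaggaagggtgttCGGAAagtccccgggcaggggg
The first base of the match shown lies 55 bases before the start in Rpl41, 62 in Rps28, 8 in Rps3a1, 76 in Cfl1 and 88 in Ltb. Counting the match shown, Rps28 has 3 matches wholly upstream, Rpl41 and Rps3a1 have 2 each, and Cfl1 and Ltb have 1 each. Across or after the start, Rpl41 has 1 further match and Cfl1 has 2, which are not shown. The motif is short and common, and a match is not a binding site.

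A smaller share of the T cell genes held these letters, a difference with no test. Of the 31 T cell list genes in the highest 10% with 1 annotated start, 12 held CGGAA (38.7%), and the median number of CG pairs was 8. Over all ranked T cell list genes it was 66 of 173 (38.2%). At or below 19 CG pairs, 34.8% of 23 T cell promoters of the highest 10% held it, beside 47.7% of all in the highest 10%. Above 19 pairs, 50% of 8 did, beside 67.4%. The TATA letters TATAAA, searched 45 to 15 bases before the start on the transcribed strand, were found in 13 of 553 promoters of the highest 10% (2.35%), in 41 of 526 of the lowest step (7.79%), in none of the 51 listed ribosomal genes and in 11 of 49 genes of other organs (22.4%). The 100 highest genes, of which 56 have 1 annotated start, did not follow the highest 10% in every feature: TATAAA was found in 3 (5.36%), beside 3.64% over all ranked genes, CGGAA in 31 (55.4%) and the pyrimidine run in 8 (14.3%). The shares of CACGTG, the site known for MYC, and of TGACTCA on either strand, the site known for AP-1, were 11.03% and 3.62% in the highest 10%, beside 9.83% and 3.93% over all ranked genes. In the lower 4126 genes these shares were 7.89% and 4.90%. The counts say nothing about which factors bind in these cells.

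**Figure D5:**
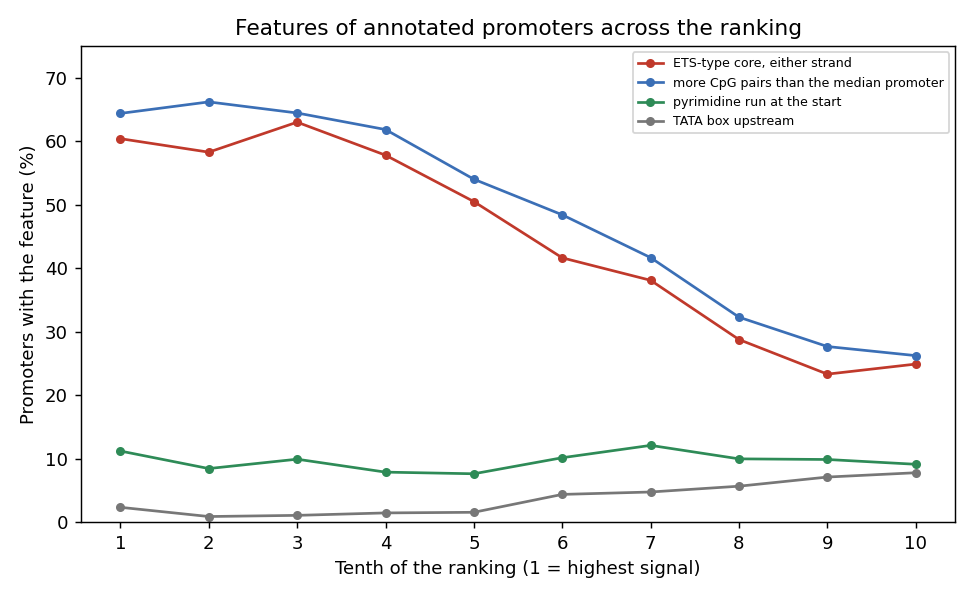
Share of annotated promoters (%) with each of 4 sequence features in each of 10 steps of the ranking, from 1 (highest signal) to 10, for genes with 1 annotated start. The ETS-type core falls from 60.4% to 24.9% and the share with many CpG pairs falls beside it, while the pyrimidine run stays between 7.63% and 12.1% and the TATA letters are at 2.35% in the highest step and 7.79% in the lowest.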

How the data were processed

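Probe set intensity values on a linear scale were deposited by the authors; the submitters' processing notes name MAS5. Its version, target and detection calls are not known here. The 2 arrays titled as antigen and B7-1 at 48 h without IL-21 were used, and the 3 arrays with IL-21 were not analysed here. Control probe sets (66 of 12488) were left out. Gene names came from the platform annotation, updated through Entrez identifiers to GRCm38.p6 (10817 of 10833 singly named sets matched). Sets with several names (396) or none (1193) were ranked but name no gene. Python 3.11.15, numpy 2.4.6 and pandas 2.3.3 were used, and the ranking was tested on simulated data. Only 2 arrays limit the precision, so each replicate's value is given in place of an error and no test was made. The rule for named genes took the 40 highest, the 3 markers, the measured T cell receptor, CD3, CD8 and pan-T genes, of each other list the 4 highest and the lowest (8 and 3 for T cell lists), the 10 genes of the highest 10% whose ranks differ most. Not all of these are described singly, and the rest enter the counts of their lists. Genes outside the rule (landmark positions, ends of ranges, remaining members of small counts and genes marked as looked up) were chosen after their values were seen. The members and lists were chosen with earlier results of these data known. Alternatives placed genes by 1 array, by the median of their probe sets, by plain probe sets alone, by scaled log2 signal, with shared probe sets added, and with other numbers of top genes. Promoters came from the RefSeq table, with 1 window from each of 22862 genes with 1 annotated start.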

Additional observations from a re-analysis of the deposited data

How the results depend on the processing

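The share of ribosomal protein genes among the 100 highest was 18%. It was 13% with each gene placed by the median of its probe sets, 15% with plain probe sets alone, 39% with shared probe sets added, 34% among the 50 highest and 9.5% among the 200 highest. The summed signal of the 100 highest was 23.8%. It was 27.3% with shared sets added, 16.5% for the 50 highest and 33.4% for the 200 highest. Ribosomal genes in the highest 10% numbered 20, and 41 with shared sets added. Naive and memory genes there numbered 4, and 7 by the median probe set. Effector cytokines numbered 3, and 5 without replicate 2. Survival genes numbered 1, and 2 without replicate 1, by the median probe set and with plain sets. B cell markers numbered 1, and 0 under the same 3 alternatives. Placing by scaled log2 signal moved none of the 34 list counts by over 1.5 times. Of 260 named genes, 44 moved by over 10 percentile points when placed by the median probe set, of which Ighm moved most (73.1 points), and with plain probe sets alone 12 of 231 did, of which Trbv1 moved most (88.2 points). Without replicate 1 or 2, Isg15 moved most (16.7 and 17.5 points). The cause of these shifts was not tested, beside their construction. No paired analysis was possible because 1 group was described and no test was made.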
